A study of Oryza sativa with 7 samples.

Results

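Metallothioneins are small, cysteine-rich proteins that hold zinc, copper and other metal ions through their thiol groups. In plants they buffer metals and scavenge reactive oxygen, and their transcripts are among the most abundant of many tissues. In rice, a type 2 metallothionein called OsMT2b has been tied to reactive oxygen and to the death of the epidermal cells that cover emerging crown roots; the sources used here do not pair it with a locus identifier. The set described here is a list of 8 rice loci given as metallothioneins, of 24775 identifiers over all tables. The list assigns LOC_Os05g02070 to type 2 and gives no type for LOC_Os01g05650, LOC_Os01g74300, LOC_Os05g11320, LOC_Os11g47809, LOC_Os12g38270, LOC_Os12g38010 and LOC_Os12g38051. The tables pair no identifier with a name and no member matched the reference table, so the family name rests on that list, no role of a single locus can be given and no sequence is shown. For LOC_Os05g02070 a measured value entered the choice: it was the most counted gene of both control libraries. Its differences from control are therefore described without a test.

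RNA was sequenced from the stem base of wild-type seedlings of the indica cultivar IR64, grown for 6 days on half-strength MS medium in a long-day light cycle. Crown root primordia, the precursors of the shoot-borne roots, were cut out of tissue sections by laser capture microdissection at outgrowth (2 libraries) and, earlier in their development, at initiation (3 libraries). Ground tissue collected in the same way was the control (2 libraries). All groups share the cultivar, the age, the medium and a low-input library kit that amplifies cDNA, and no label says which libraries came from which plants, so each p-value reflects the spread among these few libraries alone and that spread may be technical. Total counts were between 8351775 and 25448025 per library. Between the libraries labelled initiation replicates 1 and 3 the difference was less than the sampling noise. Its square averaged 0.402 times the binomial noise, against 9.53 to 52.5 times for the other pairs within the groups. They were averaged and counted as 1 sample, giving n = 2 in each group. The outgrowth tables differ in format from the others, so a batch and the stage cannot be told apart. Marker genes of the tissues were not checked, because the identifiers carry no names.

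The members divided into loci with high, low and barely any counts. LOC_Os05g02070, LOC_Os01g74300 and LOC_Os01g05650 had reads in all 7 libraries and their highest levels in control. LOC_Os11g47809 had reads in 6 libraries and its highest levels in primordia. LOC_Os12g38270 had at most 11 reads in any library, LOC_Os12g38010 had 1 read in the whole series, and LOC_Os05g11320 and LOC_Os12g38051 were listed in none of the tables. Levels below are CPM, the counts of a locus per 1000000 counts of its library. Gene lengths were not used here, so levels are compared between libraries for a locus and not between loci. In samples of captured tissue, fewer cells of a type that express a gene and less RNA of it per cell cannot be told apart.

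**Figure D1:**
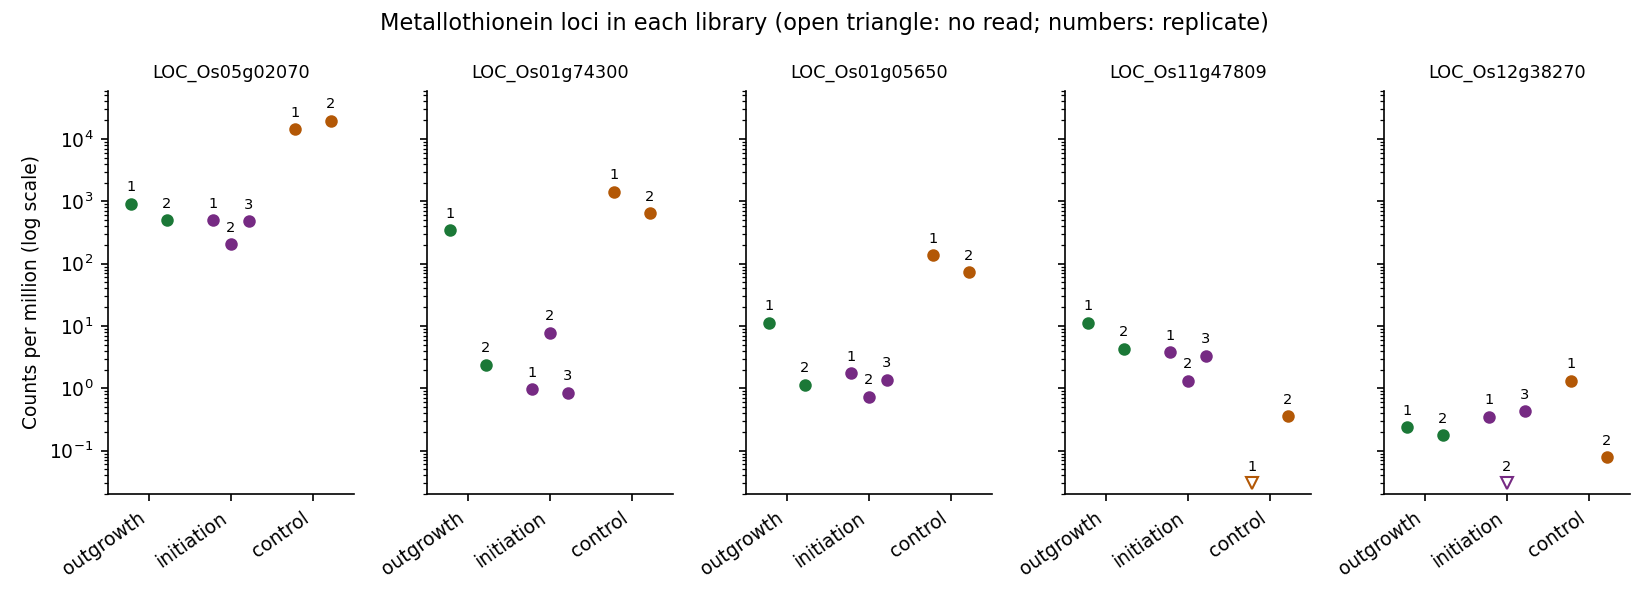
CPM of 5 metallothionein loci in each of the 7 libraries, on a log axis, with the replicate number above each point and an open triangle where a library had no read. LOC_Os05g02070, LOC_Os01g74300 and LOC_Os01g05650 were highest in both control libraries, LOC_Os11g47809 was lowest there, and outgrowth replicate 1 stood far above outgrowth replicate 2 for LOC_Os01g74300.

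LOC_Os05g02070, the type 2 locus on chromosome 5, had 914 and 497 CPM in outgrowth replicates 1 and 2. It had 499.9, 206 and 482 CPM in initiation replicates 1, 2 and 3, against 14448 and 19707 CPM in control replicates 1 and 2. Every primordium library was thus far below both control libraries. The next most counted gene of the control libraries had 11068 and 14955 CPM. Among all genes ordered by counts, without regard to length, LOC_Os05g02070 came 99th and 252nd at outgrowth, 249th, 850th and 260th at initiation, and first in both control libraries. Its mean ± SD (n = 2 each) was 705 ± 295 CPM at outgrowth, 349 ± 201 CPM at initiation and 17077 ± 3718 CPM in control. The mean was 24.2-fold lower at outgrowth than in control and 49.0-fold lower at initiation than in control. The fitted log2 differences from control were -4.56 ± 0.48 (SE) at outgrowth and -5.54 ± 0.51 (SE) at initiation. These values describe a gene that was picked for its level in control.

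Between the stages, LOC_Os05g02070 could be tested. The ratio of outgrowth to initiation was 2.02, and the averaged samples of the stages did not overlap, but outgrowth replicate 2, at 497 CPM, lay just below initiation replicate 1, at 499.9 CPM. The fitted log2 difference of 0.98 ± 0.42 (SE) missed the threshold (edgeR adjusted p = 0.285). It was 0.50 without outgrowth replicate 1, 0.50 without initiation replicate 2 and 1.70 without initiation replicates 1 and 3, none of them past the threshold. With no filter on low counts the difference was 0.98 and passed it (edgeR adjusted p = 0.0417; all settings gave 0.0417 to 1). The libraries within a stage differed by like factors, 1.84-fold between outgrowth replicates 1 and 2 and 2.38-fold between the average of initiation replicates 1 and 3 and replicate 2.

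LOC_Os01g74300, near the end of the identifier series of chromosome 1, had 343 and 2.38 CPM in outgrowth replicates 1 and 2, from 4289 and 27 reads. It had 0.964, 7.86 and 0.855 CPM in initiation replicates 1, 2 and 3, from 11, 118 and 18 reads. In control replicates 1 and 2 it had 1413 and 649 CPM. Outgrowth replicate 2 and all initiation libraries lay at or below 7.86 CPM, whereas outgrowth replicate 1 came nearest to control. At initiation the locus was 235-fold lower than in control by the means, 4.38 ± 4.91 CPM against 1031 ± 540 CPM (SD, n = 2 each). It was called lower at initiation than in control, with a log2 fold change of -7.79 ± 2.02 (SE, edgeR adjusted p = 0.0235). That call was lost without initiation replicate 2 (edgeR adjusted p = 0.105), without initiation replicates 1 and 3 together (edgeR adjusted p = 0.146) and with no abundance trend of the dispersion (edgeR adjusted p = 0.0851), and its adjusted p ran between 1.50e-06 and 0.146 under all settings; the log2 fold change was then -10.1, -6.92 and -7.78.

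At outgrowth the level of LOC_Os01g74300 rested on a single library. With both libraries the mean ± SD (n = 2 each) was 173 ± 241 CPM at outgrowth, against 1031 ± 540 CPM in control. The log2 fold change of -2.54 ± 1.56 (SE) missed the threshold (edgeR adjusted p = 0.268). Without outgrowth replicate 1 the log2 fold change was -8.69 and passed it (edgeR adjusted p = 0.0112; all settings gave 0.0112 to 0.451). Outgrowth against initiation gave a log2 fold change of 5.25 ± 1.83 (SE, edgeR adjusted p = 0.184), and without outgrowth replicate 1 it turned to -0.90 (edgeR adjusted p = 1; all settings gave 0.000452 to 1). The outgrowth libraries differed 144-fold for this locus. On the log2(CPM + 1) scale the difference was 6.67, and none of the 18830 tested genes differed more between the outgrowth libraries, where the median absolute difference was 0.183 and the next largest excess of replicate 1 was 4.71.

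**Figure D2:**
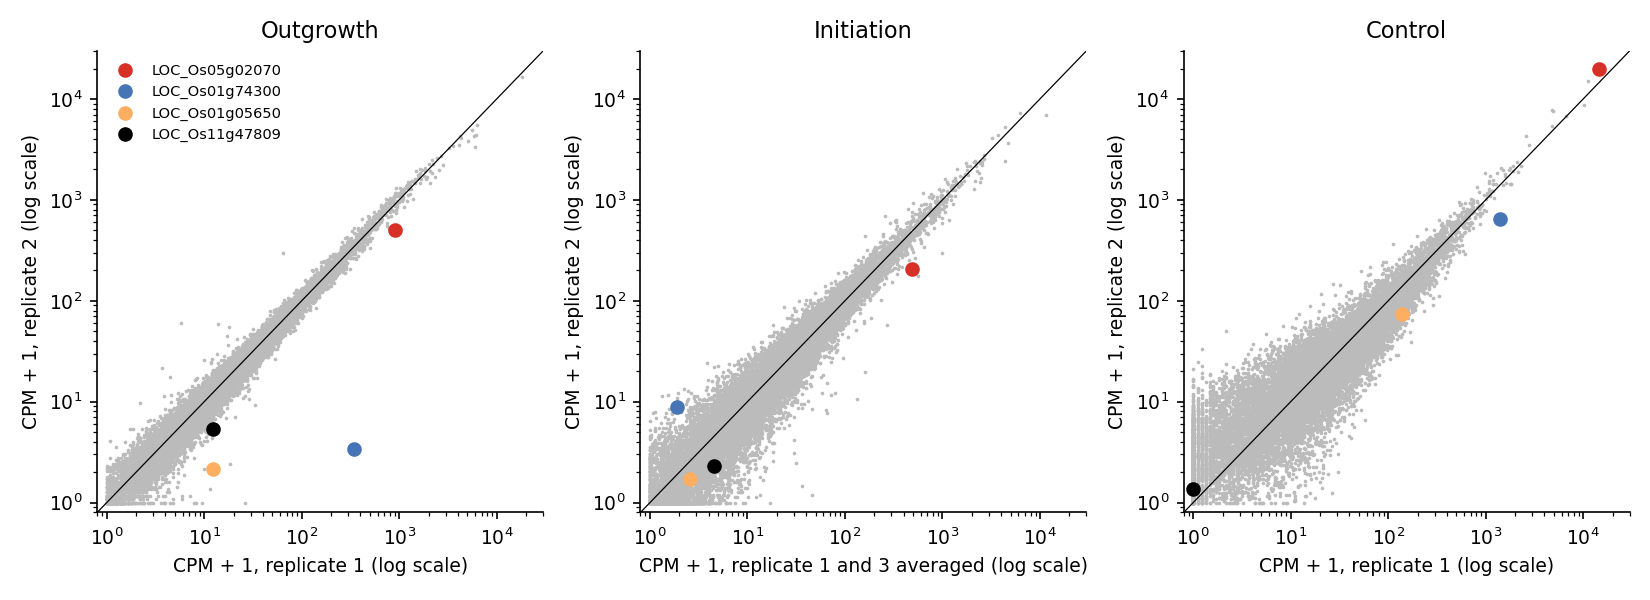
CPM + 1 of the 18830 tested genes (grey) in the libraries of each group, replicate 2 against replicate 1 (at initiation against the average of replicates 1 and 3), on log axes with the line of equal levels. LOC_Os01g74300 is the gene farthest from the line at outgrowth, at 343 and 2.38 CPM, and lies among the other genes in control.

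The other members that passed the filter were also higher in outgrowth replicate 1 than in replicate 2. LOC_Os01g05650 ranked 9th of 18830 tested genes by that excess, LOC_Os11g47809 ranked 71st and LOC_Os05g02070 ranked 228th. LOC_Os12g38270, with 3 and 2 reads in outgrowth replicates 1 and 2, had too few for a comparison. Of the 20 genes with the greatest excess in outgrowth replicate 1, 8 were called lower at initiation than in control, as were 16.1% of all tested genes. These 8 include 2 members, LOC_Os01g74300 and LOC_Os01g05650. Over all 3025 genes called lower at initiation, outgrowth replicate 1 exceeded replicate 2 by a median of 0.11 on the log2 scale, against 0.03 over all tested genes and -0.03 over the 2704 called higher. For each 100 reads of LOC_Os05g02070, LOC_Os01g74300 had 37.5 and 0.479 reads in outgrowth replicates 1 and 2 and 9.78 and 3.29 reads in control replicates 1 and 2. At initiation the same figure was 0.193, 3.81 and 0.178 in replicates 1, 2 and 3. The proportion in outgrowth replicate 1 was thus above that of either control library. What part the ground tissue genes have in the level of the members in that library was not tested.

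LOC_Os01g05650, the other chromosome 1 locus, had 11.3 and 1.15 CPM in outgrowth replicates 1 and 2. It had 1.75, 0.733 and 1.38 CPM in initiation replicates 1, 2 and 3, against 136 and 72.6 CPM in control replicates 1 and 2. All primordium libraries lay below both control libraries, while the stages overlapped. The locus was lower at outgrowth than in control, 6.21 ± 7.15 CPM against 104 ± 45.0 CPM (SD, n = 2 each). The log2 fold change was -4.02 ± 0.87 (SE, edgeR adjusted p = 0.0136). The locus was lower at initiation than in control as well, 1.15 ± 0.589 CPM against 104 ± 45.0 CPM (SD, n = 2 each). The log2 fold change there was -6.45 ± 1.01 (SE, edgeR adjusted p = 0.00341). The call at initiation passed under every setting tried (edgeR or DESeq2 adjusted p at most 0.0494), and the call at outgrowth passed in all but the fit without the abundance trend (edgeR adjusted p = 0.0590; all settings gave 1.83e-06 to 0.0590). Without outgrowth replicate 1 the log2 fold change at outgrowth was -6.43. The log2 difference between outgrowth and initiation was 2.43 ± 0.93 (SE, edgeR adjusted p = 0.225); without outgrowth replicate 1 it was 0.02.

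LOC_Os11g47809, on chromosome 11, ran the other way. It had 11.3 and 4.32 CPM in outgrowth replicates 1 and 2 and 3.77, 1.33 and 3.33 CPM in initiation replicates 1, 2 and 3. Control replicate 1 had no read, which allows up to 0.359 CPM by a limit of 3 counts, and control replicate 2 had 9 reads, 0.354 CPM. Every primordium library lay above both control libraries. The locus reached 1 CPM in primordia only and so passed the filter on low values through the groups in which it was high. Its p-values against control in the filtered fit are therefore a description and not support. The mean at outgrowth was 7.79 ± 4.91 CPM, against 0.177 ± 0.250 CPM in control (SD, n = 2 each), and the fitted log2 fold change was 5.14 ± 1.26 (SE, edgeR adjusted p = 0.0215). In the fit with no filter on low counts it was 5.17 (edgeR adjusted p = 0.00147). The locus had few reads in control, so that p-value is a description as well. At initiation it averaged 2.44 ± 1.57 CPM against 0.177 ± 0.250 CPM in control (SD, n = 2 each), and the log2 fold change of 3.48 ± 1.19 (SE) missed the threshold (edgeR adjusted p = 0.0611; all settings gave 0.0147 to 0.207, the lowest with DESeq2). Without control replicate 2, the control library with reads of this locus, the fitted log2 fold changes were 9.61 at outgrowth and 7.96 at initiation; the control left then has no read, so these depend on the prior count and are no bound. The stages differed by 1.66 ± 1.05 on the log2 scale (SE, edgeR adjusted p = 0.493), so a difference between the stages in the effect against control was not shown. At outgrowth the log2 fold change was 4.39 without outgrowth replicate 1 (edgeR adjusted p = 0.168) and 5.73 without outgrowth replicate 2 (edgeR adjusted p = 0.0741), no longer past the threshold in either case, and all settings gave 0.0001995 to 0.168.

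The remaining loci gave too few reads for a comparison. LOC_Os12g38270 had 3 and 2 reads in outgrowth replicates 1 and 2, 4, 0 and 9 reads in initiation replicates 1, 2 and 3, against 11 and 2 reads in control replicates 1 and 2. Its highest level was 1.32 CPM in control replicate 1, with an exact 95% interval of 0.657 to 2.36 CPM, and the groups overlapped. The single read of LOC_Os12g38010 was in outgrowth replicate 1. With absence from a table taken as no read, LOC_Os05g11320 and LOC_Os12g38051 were below 0.118 CPM in control replicate 2, the deepest library, and below 0.359 CPM in control replicate 1, the shallowest, by a limit of 3 counts. These limits and intervals cover counting error only. By their identifiers LOC_Os12g38010, LOC_Os12g38051 and LOC_Os12g38270 lie near each other on chromosome 12. Reads of near-identical copies may have been divided or dropped in counting, so the low counts of these loci are uncertain.

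Of the 8 members, 4 passed the filter of at least 1 CPM in at least 2 samples, a number that depends on the levels themselves. Against control, 3 of them were tested. At initiation, 0 were called higher and 2 lower (LOC_Os01g05650 and LOC_Os01g74300), where 30.4% of the 18830 genes tested were called, 14.4% higher and 16.1% lower. The third, LOC_Os11g47809, had an unadjusted p of 0.0202 by edgeR and was called higher by DESeq2, as were 18.1% of genes. It passed the filter, which both fits share, through primordia alone, so neither value is support. At outgrowth, 1 was called higher (LOC_Os11g47809, which passed the filter through primordia alone, so that its call is not support) and 1 lower (LOC_Os01g05650), where 26.4% of genes were called, 12.8% higher and 13.6% lower. Both comparisons use the same control libraries. Between outgrowth and initiation, 0 of 4 members were called by edgeR, where 3.08% of genes were called, 1.25% higher and 1.83% lower. All 4 fitted log2 differences between the stages were positive, from 0.98 to 5.25, and 3 of them had an unadjusted p below 0.05, 0.0489 for LOC_Os05g02070, 0.0315 for LOC_Os01g05650 and 0.0217 for LOC_Os01g74300 by edgeR, as had 17.4% of all genes tested. Without outgrowth replicate 1 the log2 differences of these 3 were 0.50, 0.02 and -0.90. DESeq2 called 1 of the 4, LOC_Os01g05650 (adjusted p = 0.0372), and 9.67% of all genes. Without a filter on low counts, edgeR called 3 of the 6 listed members, and 6.16% of 24733 genes. The 3 were LOC_Os05g02070, LOC_Os01g05650 and LOC_Os01g74300. In that fit LOC_Os01g74300 had an SE of 0.965, against 1.83 in the filtered fit, though its outgrowth level rested on a single library. The median log2 fold change of the 4 fitted members was 2.05 for outgrowth against initiation, -3.28 for outgrowth against control and -5.995 for initiation against control, beside 0.03, -0.02 and -0.05 over all genes tested. Against control these medians rest in part on LOC_Os05g02070, picked for its control level. Without it the middle value of the other 3 was -2.54, that of LOC_Os01g74300, at outgrowth and -6.45, that of LOC_Os01g05650, at initiation.

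**Figure D3:**
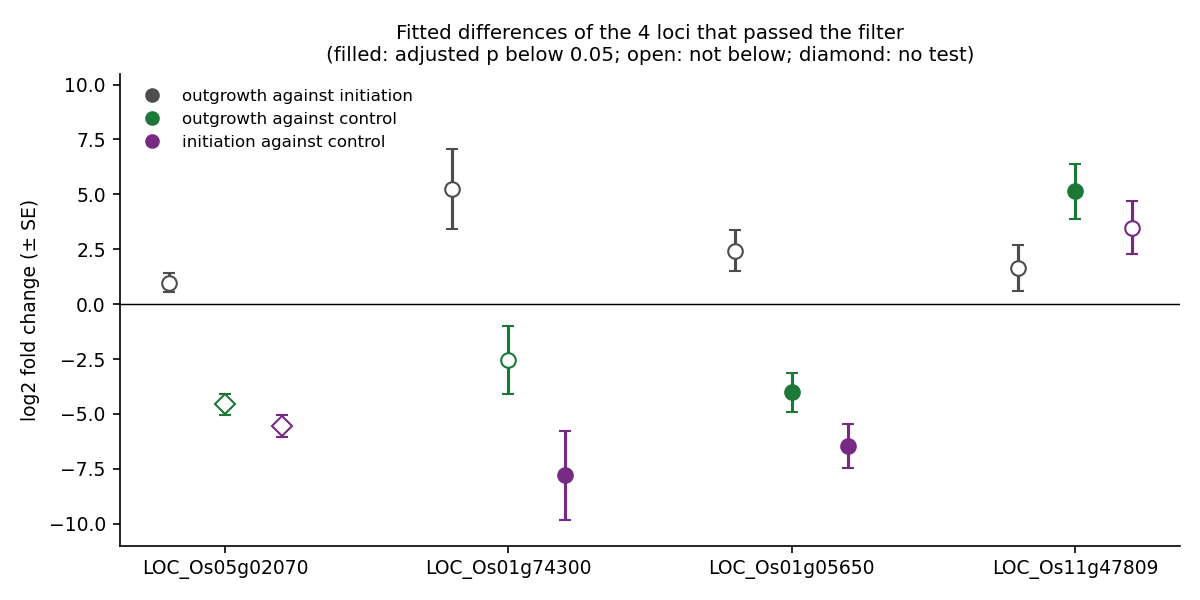
Fitted log2 fold changes with standard errors of the 4 loci that passed the filter, for the 3 comparisons; filled points have an edgeR adjusted p below 0.05, open points do not, and diamonds are the untested differences of LOC_Os05g02070 from control. LOC_Os11g47809 is the locus above 0 in every comparison, and the widest errors belong to LOC_Os01g74300. The filled point of LOC_Os11g47809 for outgrowth against control is not support, because the locus passed the filter through primordia alone.

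Added together, the listed members took 0.128% and 0.0505% of all counts in outgrowth replicates 1 and 2. They took 0.0507%, 0.0216% and 0.0488% in initiation replicates 1, 2 and 3, against 1.60% and 2.04% in control replicates 1 and 2. The means were 0.0892 ± 0.0547% at outgrowth, 0.0357 ± 0.0199% at initiation and 1.82 ± 0.313% in control (SD, n = 2 each). Both control libraries were above all primordium libraries, and the ranges of outgrowth and initiation overlapped. The height of the sum in control follows largely from LOC_Os05g02070, which was picked for its control level. This sum is mostly LOC_Os05g02070, which supplied 71.4% and 98.4% of the counts of the members in outgrowth replicates 1 and 2, 98.7%, 95.4% and 98.8% in initiation replicates 1, 2 and 3, against 90.3% and 96.5% in control replicates 1 and 2. LOC_Os01g74300 supplied 26.8% in outgrowth replicate 1 and at most 8.83% in any other library. The sum of the other members, without LOC_Os05g02070, was 365 and 8.03 CPM at outgrowth, 6.84, 9.92 and 5.99 CPM at initiation, and 1551 and 722 CPM in control. That sum, too, was highest in control, and outgrowth replicate 1 was the only primordium library above 10 CPM. In those 3 libraries it was mostly LOC_Os01g74300, at 1413 and 649 CPM in control replicates 1 and 2 and 343 CPM in outgrowth replicate 1. Within the sum, LOC_Os11g47809 was lowest in control.

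**Figure D4:**
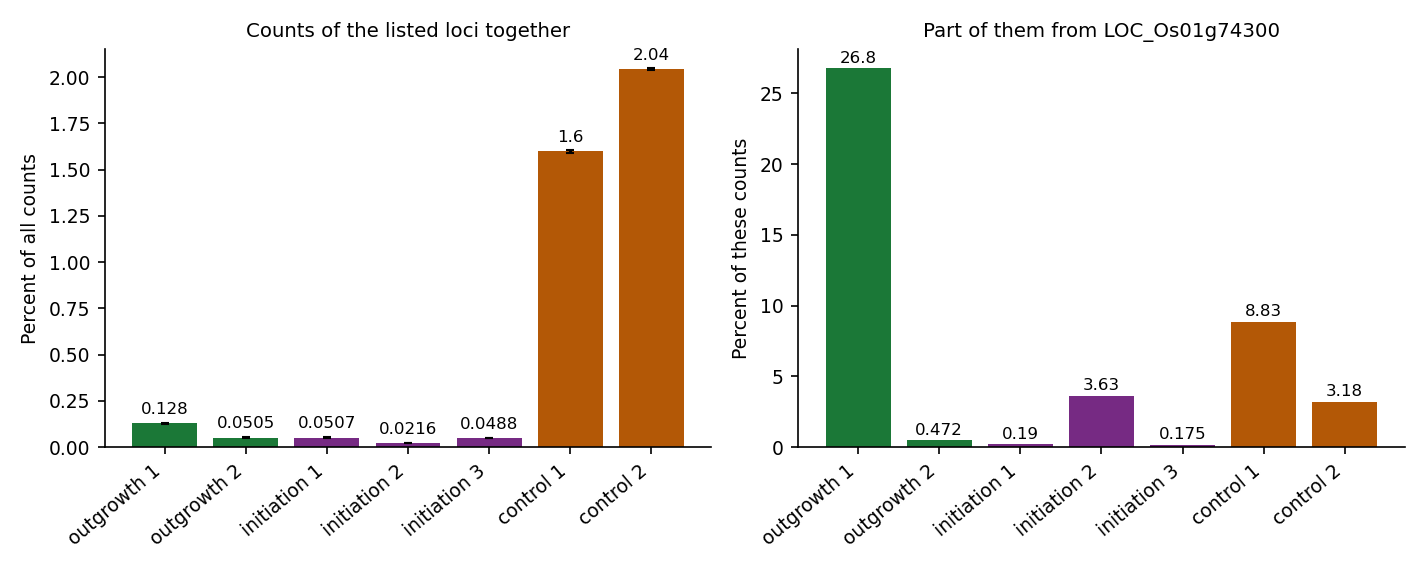
Left, percent of all counts of each library that fell on the 6 listed metallothionein loci, with exact 95% binomial intervals (counting error only); right, percent of those counts that came from LOC_Os01g74300. The control libraries had 1.60% and 2.04%, every primordium library had 0.128% or less, and LOC_Os01g74300 had its highest part, 26.8%, in outgrowth replicate 1. Most counts of the listed loci came from LOC_Os05g02070, which was picked for its control level.

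Genes listed next to the members by identifier were called in both directions, and their counts are a description. Of 42 such genes, 3 on each side of every member, 34 passed the filter. Of these, 7 were called higher and 3 lower at outgrowth than in control, while initiation had 8 above and 4 below control. Over all genes tested, 12.8% were called higher and 13.6% lower at outgrowth, and 14.4% higher and 16.1% lower at initiation. So few neighbours cannot show whether they depart from those shares. Around LOC_Os05g02070, 1 of 5 was called higher at outgrowth, and 1 higher and 1 lower at initiation. On chromosome 12, the stretch of identifiers that holds LOC_Os12g38010, LOC_Os12g38051 and LOC_Os12g38270 had 16 other listed genes, of which 11 were tested; 3 were called higher and 2 lower at outgrowth than in control, while initiation had 2 above and 3 below control.

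The genes whose levels followed LOC_Os05g02070 most closely were LOC_Os11g44810, LOC_Os04g55570 and LOC_Os08g34720, with Pearson correlations of 0.997, 0.997 and 0.995 on log2(CPM + 1) over the 6 samples. They were chosen by that measure among 2072 genes with a mean of at least 100 CPM, of which 11 had a correlation above 0.99. Correlations over 6 samples follow mainly the split between primordia and control, and they are given as a description. Mean levels of LOC_Os11g44810 were 261 CPM at outgrowth, 199 CPM at initiation and 1373 CPM in control. LOC_Os08g34720 averaged 24.0 CPM at outgrowth, 15.0 CPM at initiation and 278 CPM in control. LOC_Os04g55570 averaged 80.4 CPM at outgrowth, 57.2 CPM at initiation and 205 CPM in control. All 3 followed the order of LOC_Os05g02070, with control highest and initiation lowest, over a narrower range.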

How the data were processed

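Members and lists were chosen with earlier results of these data known. The submitters' processing notes name STAR, an aligner; which counter, genome build, annotation and strand setting the authors used is not given in the sources used here. The deposited tables head their values FPKM but hold whole read counts of at least 1: as FPKM, the totals would need a mean transcript length of 39.3 to 119.7 bases. Genes missing from a table were taken as 0 reads.

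Counts of all genes were fitted with edgeR 4.0.16 (R 4.3.3; glmQLFit and glmQLFTest, TMM scaling, trended dispersion) on 6 samples, with genes of at least 1 CPM in at least 2 samples tested (18830) and p-values, two-sided, adjusted by Benjamini-Hochberg over all of them (threshold 0.05). Standard errors were computed as the absolute log2 fold change over the root of F. CPM uses the file totals. The procedure was tested on simulated counts. Named were all 8 members, the 3 genes most correlated with LOC_Os05g02070 and neighbours by identifier. Alternatives were DESeq2 1.42.0, other scalings and filters, and leaving out libraries. Deeper libraries (25448025 counts at most) give more precise low values.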

Additional observations from a re-analysis of the deposited data

How the results depend on the processing

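No member was called between outgrowth and initiation by edgeR, whichever library was left out, but DESeq2 called 1 and edgeR without a filter on low counts called 3 of 6. Against control, 2 members were called at each stage, where 30.4% of all genes were called at initiation and 26.4% at outgrowth. Both were lower at initiation. At outgrowth 1 was lower and 1, LOC_Os11g47809, was higher, which is not support because it passed the filter through primordia alone. At initiation 3 were called by DESeq2, without a filter on low counts, and with initiation replicates 1 and 3 separate. Of all genes, 7025 of 18830, 6593 of 24733 and 8018 of 18998 were called there. The third member in each was LOC_Os11g47809, higher than in control. It had few reads in control and passed the filter, where one was used, through primordia alone, so its calls are not support. At outgrowth 3 were called without a filter on low counts, 1 higher and 2 lower, where 5748 of 24733 genes were called. The added call was LOC_Os01g74300 (edgeR adjusted p = 0.0263), whose outgrowth level rested on a single library. At initiation 1, LOC_Os01g05650, was called with no abundance trend, where 4493 of 18830 genes were called. At outgrowth 1 was called with at least 5 CPM in 2 samples, which leaves LOC_Os11g47809 untested, where 4732 of 15566 genes were called. With no abundance trend the 1 called at outgrowth was LOC_Os11g47809, which is not support, where 3845 of 18830 genes were called. Which members were called against control also changed when a library was left out. LOC_Os01g74300 was reversed between the stages without outgrowth replicate 1, at -0.90, within -0.90 to 7.60 over left-out libraries. Library differences correlated by -0.02 to 0.01 between groups. This cannot show whether the replicate numbers pair the libraries, and no label says so. With a replicate block the members called were 0 between the stages and 2 against control at each stage. Over all genes, 580 were called between the stages, against 1821 with DESeq2, 1523 without a filter, 1624 with initiation replicates 1 and 3 separate, 1949 with only these groups fitted, 0 with no abundance trend and 0 to 1821 with a library left out. At initiation 5729 were called, 3076 to 7970 with a library left out, and at outgrowth 4976, 1523 to 7590. In these data 84 of 84 levels under other scalings or left-out libraries moved by less than 1 SD, which is built in where a group of 2 loses 1 library. Depth limits the loci with 11 reads or fewer, and 2 libraries a group limit every test.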
